A study of Mus musculus with 14 samples.

Results

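The 10 genes described here encode subunits of the Polycomb repressive complexes: Ezh2, Eed, Suz12, Jarid2 and Mtf2 of PRC2, and Rnf2, Ring1, Cbx7, Pcgf6 and Kdm2b of PRC1. They were chosen by name, as subunits of the 2 complexes that act in pluripotent cells, with earlier results of these data known. All 10 were found among the 25131 rows of the gene count table. The series is built around RCOR2, a corepressor of the CoREST family that works with the histone demethylase LSD1, in mouse embryonic stem cells (ESCs). For each Polycomb gene 3 things were read: its RNA level in wild-type (WT) cells, its RNA in Rcor2 knockout (KO) cells against WT cells, and the sites at which RCOR2 was bound within 10 kb of the gene.

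The RNA-seq groups were Rcor2 KO ESCs (2 libraries) and WT ESCs (2 libraries). The RCOR2 binding sites came from chromatin immunoprecipitation (ChIP) with anti-HA resin from ESCs that express HA-tagged RCOR2 (2 libraries). Its negative controls were the same pull-down from WT cells (1 library) and from cells that express mCherry (1 library). All groups share the C57BL/6 background and a medium with serum, leukemia inhibitory factor, the MEK inhibitor PD0325901 and the GSK3 inhibitor CHIR99021. Nothing in the labels tells what was deleted in Rcor2, the number of KO clones, or whether a group's libraries come from independent cultures. The p-values therefore reflect only the scatter between libraries, possibly a technical one. The tagged RCOR2 was expressed from a construct, so its sites are those of the tagged protein in WT cells.

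Polycomb complexes keep developmental genes silent. PRC2 places methyl groups on lysine 27 of histone H3, and PRC1 places ubiquitin on histone H2A; each complex holds subunits that recognise the mark of the other. In ESCs both complexes sit mainly at unmethylated CpG islands of developmental regulators, and ESCs that lack PRC2 still renew themselves but differentiate poorly.

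Sequencing depth was 2951498 and 1974865 counts in the KO libraries, against 2368804 and 1286393 counts in the WT libraries. Rcor2 itself had 157 and 103 counts in KO libraries, against 193 and 107 in WT libraries. After scaling this was 53.6 ± 0.211 counts per 1000000 counts (CPM) in KO cells and 80.8 ± 0.116 CPM in WT cells (SD, n = 2 each), a log2 change of -0.59 with an adjusted p of 0.0636 by edgeR's quasi-likelihood test; the counts do not check the genotype, since the deleted part is not given. The 10 ESC markers, which include Pou5f1, Sox2 and Nanog, were all measured and summed to 4714 and 4609 CPM in KO libraries and to 4492 and 4290 CPM in WT libraries. Among them Klf4 was higher in KO cells (95% interval of the log2 fold change 0.98 to 1.62), Nanog was higher by 0.48, Dppa5a fell by 0.47, and the other 7 were not called by edgeR. Of the 10241 genes with enough counts to be tested, 1062 were higher and 952 were lower in KO cells at an adjusted p under 0.05. These calls were unevenly spread over the genome. By chromosome, the median change on the log2 scale was 0.92 on chromosome 6, 0.52 on chromosome 8, 0.48 on chromosome 3 and -0.49 on chromosome 11, while the other autosomes and the X lay between -0.16 and -0.00. Both genes tested on the Y were lower: Eif2s3y had 1 and 0 counts in KO libraries, against 68 and 30 in WT libraries, and Ddx3y had 0 and 1 counts in KO libraries, against 20 and 20 in WT libraries. Ezh2 lies on chromosome 6 and Suz12 on chromosome 11, so their values are also given with the median of each chromosome set to 0. On that scale Klf4 was still called higher, and 3 of the ESC markers were called lower. These were Dppa5a, Nanog of chromosome 6 at -0.44 (edgeR adjusted p = 0.0362) and Sox2 of chromosome 3 at -0.72 (edgeR adjusted p = 0.00019).

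The promoters of 5 of these genes are printed here because the results return to them: Ezh2 and Suz12 are the genes that changed in KO cells, Mtf2 and Cbx7 carry RCOR2 peaks over the start of transcription, and Pcgf6 has no RCOR2 peak near it. Each runs 5′ to 3′ along the gene from 250 bases before the RefSeq start site on GRCm38.p6. For Ezh2 and Suz12 the capitals mark an E2F-type motif (TTTGGCGC or TTTCCCGC), and for the others they mark bases that lie inside an RCOR2 peak; the Pcgf6 promoter has none.
Ezh2, chr6:47595011-47595280, minus strand: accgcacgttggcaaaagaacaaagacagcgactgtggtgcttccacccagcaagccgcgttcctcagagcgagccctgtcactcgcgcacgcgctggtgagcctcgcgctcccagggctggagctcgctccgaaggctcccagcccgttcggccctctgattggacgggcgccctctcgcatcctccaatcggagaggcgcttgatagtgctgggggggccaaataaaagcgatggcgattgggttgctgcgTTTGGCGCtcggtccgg
Suz12, chr11:79992856-79993125, plus strand: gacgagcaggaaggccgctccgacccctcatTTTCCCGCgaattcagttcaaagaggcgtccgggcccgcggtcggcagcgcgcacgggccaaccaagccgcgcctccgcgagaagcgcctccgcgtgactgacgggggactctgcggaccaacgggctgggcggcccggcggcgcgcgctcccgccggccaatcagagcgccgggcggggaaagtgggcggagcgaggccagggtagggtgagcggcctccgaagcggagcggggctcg
Mtf2, chr5:108065424-108065693, plus strand: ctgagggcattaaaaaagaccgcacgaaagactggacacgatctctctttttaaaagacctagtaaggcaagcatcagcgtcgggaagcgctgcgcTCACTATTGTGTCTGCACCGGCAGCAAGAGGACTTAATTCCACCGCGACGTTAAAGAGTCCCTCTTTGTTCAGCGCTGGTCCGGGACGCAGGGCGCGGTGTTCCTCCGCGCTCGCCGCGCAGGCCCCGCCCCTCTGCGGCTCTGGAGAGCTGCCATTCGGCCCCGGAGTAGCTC
Cbx7, chr15:79932627-79932896, minus strand: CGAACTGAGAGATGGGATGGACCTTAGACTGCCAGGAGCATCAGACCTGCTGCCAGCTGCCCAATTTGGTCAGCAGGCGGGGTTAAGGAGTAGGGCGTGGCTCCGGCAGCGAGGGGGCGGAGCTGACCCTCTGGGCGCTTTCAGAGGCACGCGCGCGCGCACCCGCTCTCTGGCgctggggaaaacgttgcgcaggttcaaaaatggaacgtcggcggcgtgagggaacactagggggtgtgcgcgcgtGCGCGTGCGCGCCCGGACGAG
Pcgf6, chr19:47050887-47051156, minus strand: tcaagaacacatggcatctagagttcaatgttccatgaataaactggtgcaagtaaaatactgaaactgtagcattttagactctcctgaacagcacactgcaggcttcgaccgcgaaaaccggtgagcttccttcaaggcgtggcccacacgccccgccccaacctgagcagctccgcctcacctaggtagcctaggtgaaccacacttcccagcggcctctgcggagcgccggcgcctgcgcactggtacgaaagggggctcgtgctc

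Ezh2 was higher and Suz12 was lower in KO cells, and the other Polycomb subunits did not pass the test. Of the 10 genes, 1 was higher in KO cells, 1 was lower and 8 were not called, beside 19.7% of all tested genes called in either direction, 10.4% higher and 9.30% lower; the share called among the Polycomb genes was near that of all genes. The median log2 fold change of the 10 genes was 0.12, beside -0.02 over all tested genes, and their median absolute log2 fold change was 0.23, beside 0.42. The 2 libraries of each group did not overlap for 5 of the 10 genes, with KO above WT for 4 of them and below for 1; over all tested genes 56.9% did not overlap.

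**Figure D1:**
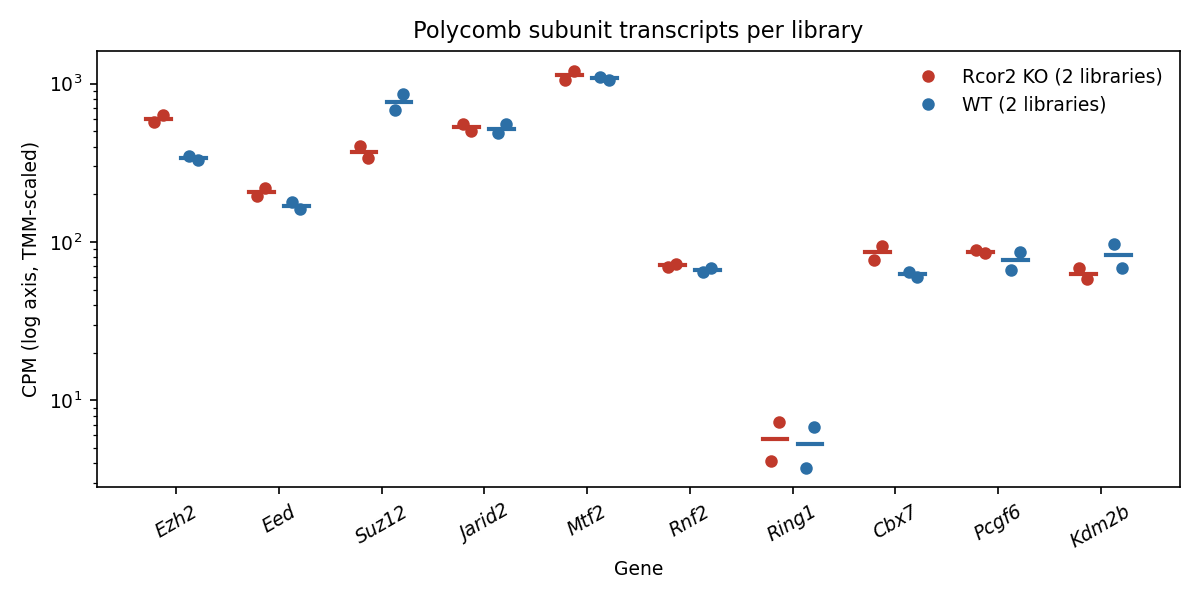
RNA level of each Polycomb gene in each library, in CPM on a log axis, with KO libraries left of WT libraries and a bar at the mean of each group. The groups lie apart for Ezh2, Eed, Rnf2 and Cbx7, with both KO libraries higher, and for Suz12, with both KO libraries lower; for Jarid2, Mtf2, Ring1, Pcgf6 and Kdm2b they overlap.

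Both called genes encode core subunits of PRC2, and both lie on chromosomes that shifted as a whole, 6 and 11. Of the 8 genes off chromosomes 3, 6, 8 and 11, 0 were called. Ezh2, the methyltransferase of the complex (GRCm38 chromosome 6, 47530274 to 47595270), had 569.7 and 629 CPM in KO libraries, against 349 and 330.5 CPM in WT libraries. Both KO libraries lay above both WT libraries. The means were 599 ± 41.8 CPM in KO cells and 339.7 ± 13.1 CPM in WT cells (SD, n = 2 each). Ezh2 rose by 0.82 on the log2 scale (SE 0.15, 95% interval 0.52 to 1.12, adjusted p = 3.11e-05 by edgeR's quasi-likelihood test).

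The rise of Ezh2 was of the size of its chromosome. Of the 502 genes tested on chromosome 6, 56.2% were higher in KO cells and 2.39% were lower, and Ezh2 had a higher log2 fold change than 44.2% of them and a lower one than 55.6%. With the median of each chromosome set to 0, the log2 fold change of Ezh2 was -0.10 (SE 0.15, edgeR adjusted p = 0.737). The 11 other genes tested within 1 Mb of Ezh2 had a median log2 fold change of 1.13, with 9 above 0 and 5 called higher. Its nearest tested neighbour Cul1, the scaffold of a family of ubiquitin ligases, lies 4130 bp away and rose by 1.24 (SE 0.17, edgeR adjusted p = 9.66e-08). Pdia4, a chaperone of the endoplasmic reticulum on the other side, rose by 0.69 (SE 0.17, edgeR adjusted p = 0.00194). A change of Ezh2 of its own and a change shared by the chromosome cannot be told apart from these counts.

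Suz12, the scaffold on which the PRC2 subunits assemble (chromosome 11, 79993106 to 80034123), moved the other way. It had 403 and 339 CPM in KO libraries, against 679.9 and 858 CPM in WT libraries. Both KO libraries lay below both WT libraries, and the WT libraries stood further from each other than the KO libraries did. The means were 371 ± 45.2 CPM in KO cells and 769 ± 126 CPM in WT cells (SD, n = 2 each). Suz12 fell by 1.05 on the log2 scale (SE 0.15, 95% interval -1.35 to -0.74, adjusted p = 2.90e-07 by edgeR).

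The fall of Suz12 was larger than the median change of its chromosome, -0.49, but 15.4% of the genes tested there fell further. Of the 870 genes tested on chromosome 11, 31.1% were lower in KO cells and 1.95% were higher, and 84.5% had a log2 fold change above that of Suz12. With each chromosome's median set to 0, Suz12 remained lower by -0.56 (SE 0.15, edgeR adjusted p = 0.00682), and it was the 1 gene of the 10 called on that scale, beside 12.9% of all tested genes. The 15 other genes tested within 1 Mb had a median log2 fold change of -0.65, with 14 below 0. Its nearest neighbour Crlf3 lies 12370 bp away and stood at -0.30 on the log2 scale (SE 0.20, edgeR adjusted p = 0.329). Utp6, a ribosome biogenesis factor 30719 bp away on the other side, fell by 0.80 (SE 0.25, edgeR adjusted p = 0.0162), and Atad5, which unloads the replication clamp, fell by 0.65 (SE 0.20, edgeR adjusted p = 0.0170). Centring takes the chromosome's median as the shift of every gene on it. How much of the fall of Suz12 was shared with its chromosome cannot be told from these counts.

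Eed, the subunit that binds methylated lysine 27 and stimulates the enzyme (chromosome 7, 89954654 to 89980976), had 195 and 218 CPM in KO libraries, against 179 and 160.3 CPM in WT libraries. The groups did not overlap, but the difference did not pass the test: the log2 fold change was 0.27 (SE 0.17, 95% interval -0.07 to 0.61, edgeR adjusted p = 0.28).

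The counts of the 3 core subunits stood in different ratios to each other in the 2 groups. The ratio of Ezh2 to Suz12 counts, which needs no scaling between libraries, was 1.42 and 1.86 in KO libraries, against 0.513 and 0.385 in WT libraries. The Ezh2 count exceeded the Suz12 count in both KO libraries and was below it in both WT libraries. The log2 ratio differed by 1.87 between KO and WT (exact permutation test, two-sided p = 0.333, the smallest that 2 against 2 libraries allow). This ratio restates the opposite changes of the 2 genes and carries the shifts of chromosomes 6 and 11 with it; on the centred scale both genes lay below 0, Ezh2 at -0.10 and Suz12 at -0.56. The ratio of Suz12 to Eed counts was 2.07 and 1.56 in KO libraries, against 3.80 and 5.35 in WT libraries. The ratio of Ezh2 to Eed was 2.93 and 2.89 in KO libraries, against 1.95 and 2.06 in WT libraries. Ezh1, the second methyltransferase, which can stand in for Ezh2, lies on chromosome 11 and averaged 30.0 ± 3.14 CPM in KO cells and 51.4 ± 7.56 CPM in WT cells (SD, n = 2 each). Its log2 fold change was -0.77 (SE 0.29, edgeR adjusted p = 0.0534) and -0.29 with chromosome medians set to 0.

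**Figure D2:**
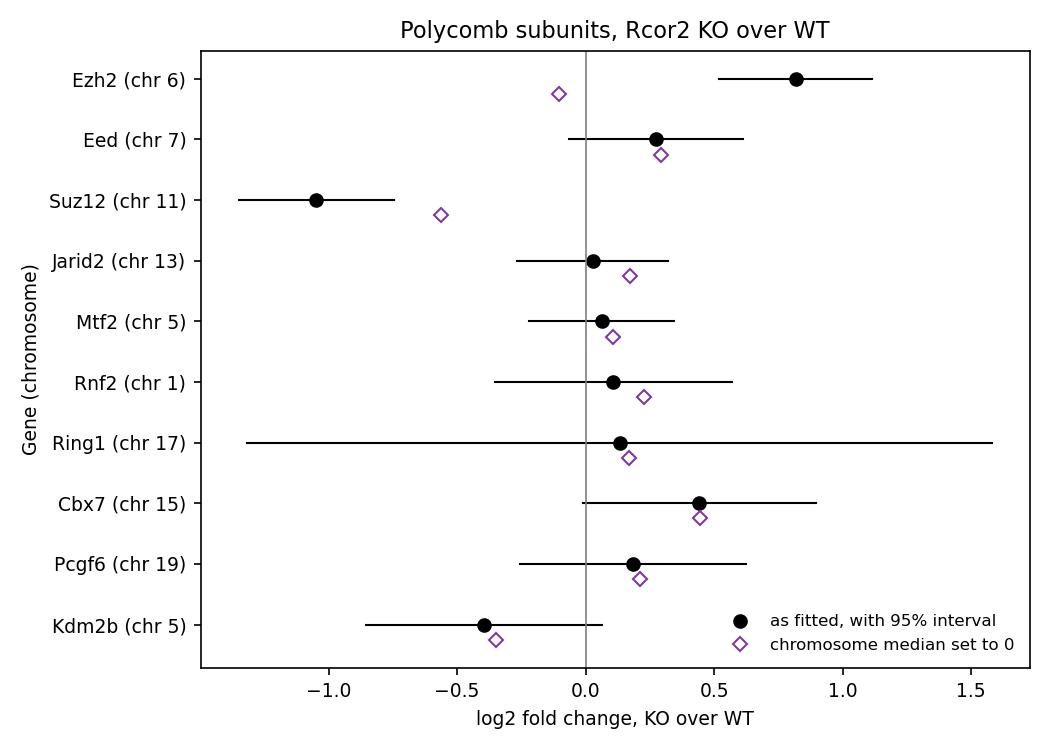
Log2 fold change of each Polycomb gene, KO over WT, with its chromosome. Filled circles with bars are the fitted values with 95% intervals; open diamonds are the values with the median of each chromosome set to 0. Ezh2 lies at 0.82 as fitted and at -0.10 after centring, and Suz12 at -1.05 and -0.56; the other genes move little between the scales.

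**Figure D3:**
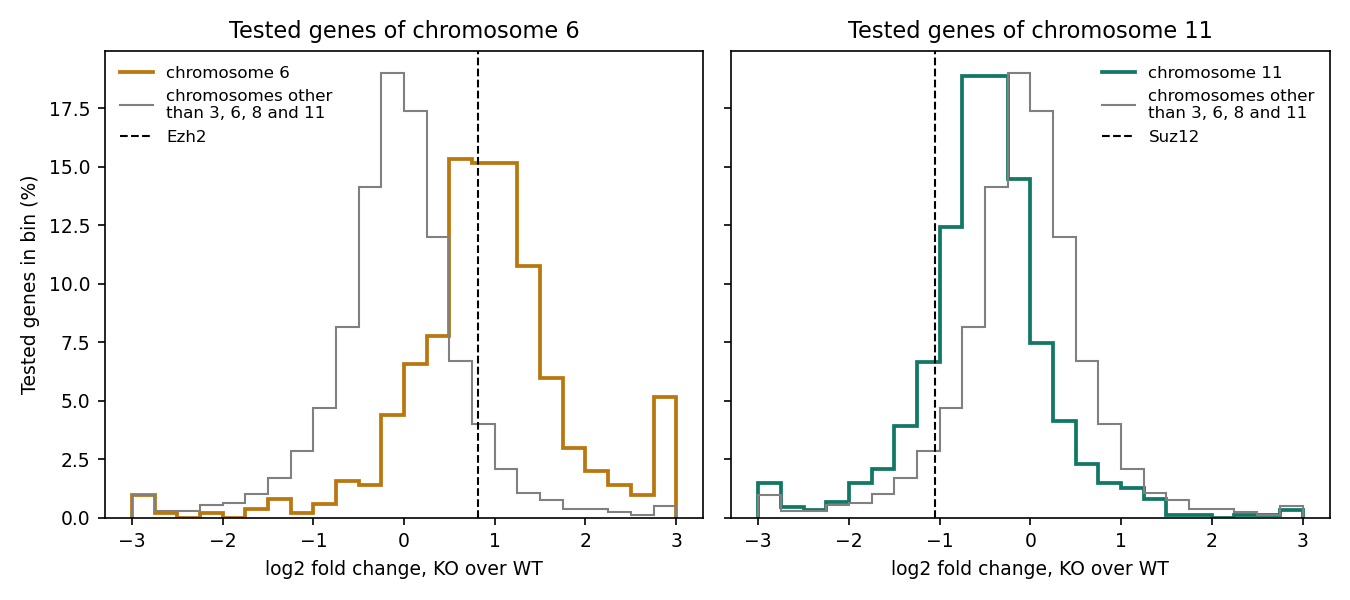
Share of tested genes by log2 fold change, KO over WT, for chromosome 6, chromosome 11 and the chromosomes other than 3, 6, 8 and 11, with vertical lines at Ezh2 and Suz12; the end bins also hold all values beyond them. Ezh2 stands within the bulk of chromosome 6, and Suz12 stands on the low side of chromosome 11, with 84.5% of its genes above it.

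Jarid2 and Mtf2, accessory subunits of PRC2, did not pass the test. Jarid2, which marks PRC2.2 and lacks demethylase activity despite its JmjC domain (chromosome 13, 44730774 to 44921643), had 555 and 504 CPM in KO libraries, against 489 and 552 CPM in WT libraries. Mtf2, the Polycomb-like protein that brings PRC2.1 to CpG islands (chromosome 5, 108065660 to 108109219), had 1050.1 and 1208 CPM in KO libraries, against 1105 and 1056 CPM in WT libraries. The groups overlapped for both genes. The log2 fold changes were 0.03 for Jarid2 (SE 0.15, 95% interval -0.27 to 0.32) and 0.06 for Mtf2 (SE 0.14, 95% interval -0.22 to 0.34). The Jarid2 to Mtf2 ratio of counts was 0.528 and 0.417 in KO libraries, against 0.442 and 0.523 in WT libraries.

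The catalytic subunits of PRC1 did not pass the test either. Rnf2, also called RING1B, is the main ubiquitin ligase of PRC1 in ESCs (chromosome 1, 151469398 to 151500991). It had 69.9 and 72.7 CPM in KO libraries, against 64.4 and 68.1 CPM in WT libraries, with both KO libraries slightly above both WT libraries. Its log2 fold change was 0.11 (SE 0.23, 95% interval -0.35 to 0.57). Its paralog Ring1 (chromosome 17, 34020792 to 34024680) was scarcely counted, with 12 and 14 reads in KO libraries, against 9 and 9 in WT libraries. At this depth the interval of its log2 fold change ran from -1.32 to 1.58, so changes within those limits could not be told from none. The ratio of Rnf2 to Ring1 counts was 17 and 10 in KO libraries, against 17.1 and 10 in WT libraries.

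Cbx7, the chromodomain subunit by which canonical PRC1 reads the PRC2 mark in ESCs (chromosome 15, 79915804 to 79971143), had 77.1 and 94.5 CPM in KO libraries, against 64.9 and 60.5 CPM in WT libraries. The groups did not overlap. The log2 fold change was 0.44 (SE 0.23, 95% interval -0.01 to 0.90, edgeR adjusted p = 0.173), the highest of the 8 genes not called. The Cbx7 interval overlaps that of Apobec3, an antiviral deaminase with 305 and 260 counts in KO libraries and 353 and 167 in WT libraries. Whether counting used strand is not given, so reads from the overlap are uncertain.

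The last pair belongs to variant PRC1, which acts without the PRC2 mark. Pcgf6, the defining subunit of PRC1.6 that silences germline genes (chromosome 19, 47033617 to 47050939), had 88.4 and 84.6 CPM in KO libraries, against 66.9 and 87.0 CPM in WT libraries, a log2 fold change of 0.18 (SE 0.22, 95% interval -0.25 to 0.62). Kdm2b, which binds unmethylated CpG and brings PRC1.1 to CpG islands (chromosome 5, 122870664 to 122989270), had 68.2 and 58.2 CPM in KO libraries, against 96.7 and 68.1 CPM in WT libraries. Its log2 fold change was -0.39 (SE 0.23, 95% interval -0.85 to 0.06), the lowest of the genes not called. For both genes the groups overlapped, through 1 WT library each: WT replicate 2 lay within the KO range, and WT replicate 1 lay outside it.

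For the 8 genes not called, the intervals show what the data bound: log2 increases of more than 0.34 for Mtf2 and 0.32 for Jarid2 lay outside them, while the interval of Cbx7 took in an increase of 0.90 and that of Kdm2b a decrease to -0.85.

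Beyond the 10 genes, 40 further genes for Polycomb subunits and for the enzymes that remove their marks were read, of which 33 had enough counts. Of these, 2 were higher in KO cells, 4 were lower and 27 were not called, so that the share called was near the 19.7% of all tested genes, with a median log2 fold change of -0.03; the 7 others had at most 28 counts in any library. In the PRC2 group, Epop, an ESC subunit that links PRC2.1 to elongin, had 118 and 147 CPM in KO libraries, against 72.0 and 77.9 CPM in WT libraries. It rose by 0.82 (SE 0.21, edgeR adjusted p = 0.00226) although its chromosome 11 fell, and by 1.31 with chromosome medians set to 0; without KO replicate 2 the rise was 0.67 and was not called. Rbbp7, a histone-binding subunit, rose by 0.54 (SE 0.17, edgeR adjusted p = 0.0148), a call lost without KO replicate 1 (0.61), KO replicate 2 (0.48) or WT replicate 2 (0.48).

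The 4 genes that fell were 1 of the 8 tested for canonical PRC1, 2 of 14 for variant PRC1 and 1 of 5 for enzymes that remove the marks. These groups make up most of the 33 tested genes, and 9.30% of all tested genes were called lower. Pcgf2, also called MEL18, of canonical PRC1 had 9.25 and 16.6 CPM in KO libraries, against 37.7 and 33.3 CPM in WT libraries. It fell by 1.50 (SE 0.38, edgeR adjusted p = 0.00282), by 1.10 and uncalled without KO replicate 1, and by 1.01 with chromosome medians set to 0 (edgeR adjusted p = 0.0679), since it too lies on chromosome 11. Auts2, which turns variant PRC1 towards activation in neural cells, had 37.0 and 45.7 CPM in KO libraries, against 72.8 and 82.4 CPM in WT libraries, and fell by 0.91 (SE 0.25, edgeR adjusted p = 0.00560); without KO replicate 1 this was -0.76 and uncalled. Kdm6a, also called UTX, which removes methyl groups from lysine 27, fell by 0.90 (SE 0.31, edgeR adjusted p = 0.0330). The Kdm6a call did not survive leaving out KO replicate 1 (-0.84), KO replicate 2 (-0.94) or WT replicate 2 (-0.56). Yaf2, a partner of the RING subunits, fell by 1.38 (SE 0.50, edgeR adjusted p = 0.0425), lost without KO replicate 1 (-0.90), WT replicate 1 (-1.52) or WT replicate 2 (-1.24). DESeq2 called neither Kdm6a nor Yaf2. With chromosome medians set to 0, Kdm6a and Yaf2 were also not called (edgeR adjusted p = 0.0554 and 0.0581). Auts2 was still called lower on that scale, at -0.87 (edgeR adjusted p = 0.0126).

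The most abundantly counted genes that were not called lay close to 0: Usp7, a deubiquitinase found in PRC1.1, at -0.04, Mga, the DNA-binding subunit of PRC1.6, at -0.14, Rbbp4 at -0.19, the demethylase gene Kdm6b at -0.22 and L3mbtl2 of PRC1.6 at 0.23. Phc1, a polymerising subunit of canonical PRC1, lies on chromosome 6 and was at -0.15 (SE 0.19), where the chromosome's median was 0.92; with chromosome medians set to 0 it was lower by -1.07 (edgeR adjusted p = 2.83e-05). Aebp2 of PRC2.2, also on chromosome 6 and chosen with its values in view, was at -0.03, and at -0.94 after centring (edgeR adjusted p = 0.000693).

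**Figure D4:**
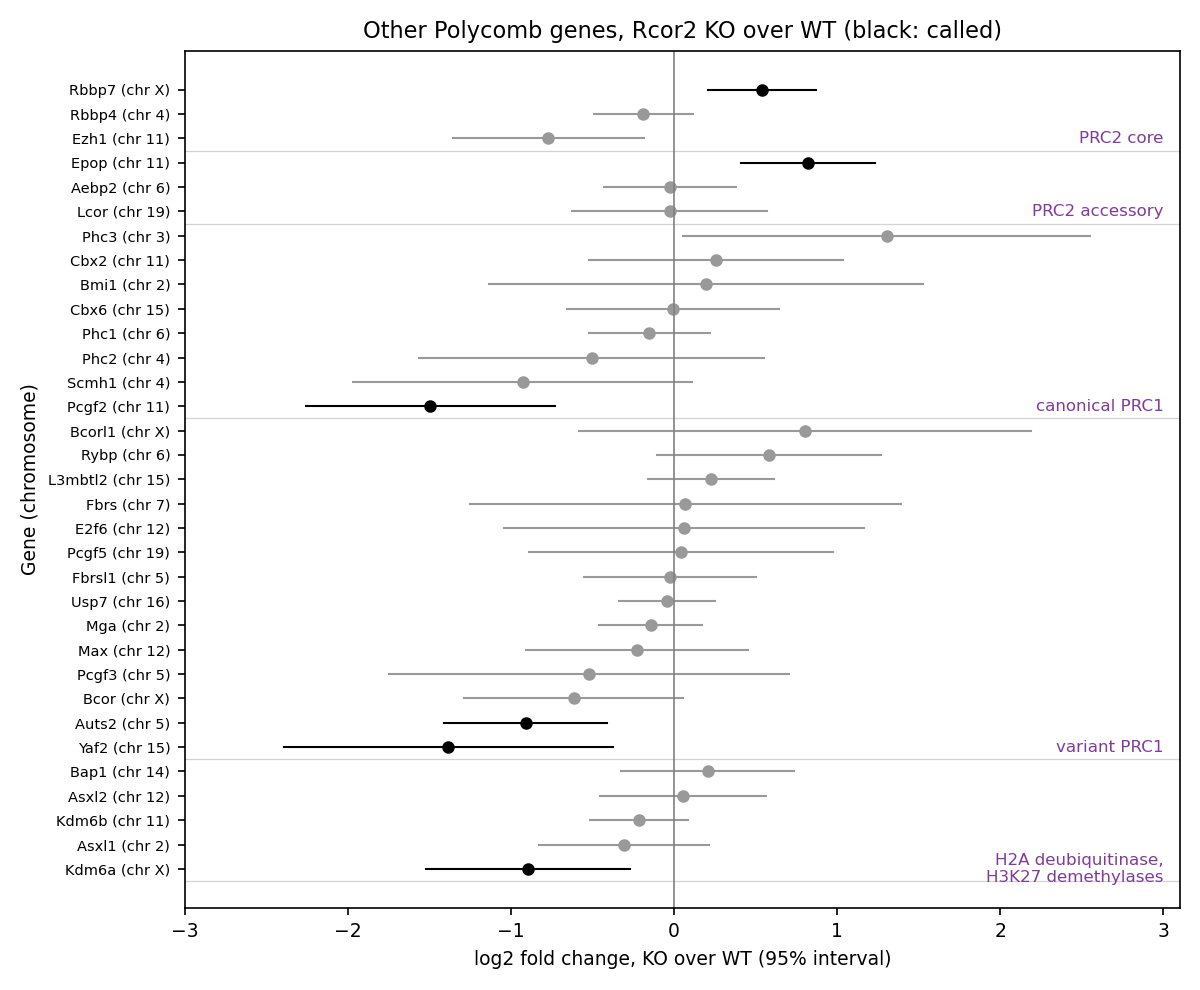
Log2 fold change, KO over WT, of the other Polycomb genes tested, grouped by role. Black points passed an adjusted p under 0.05, grey points did not, and bars are 95% intervals. Of the 33 genes, Epop and Rbbp7 were higher and Pcgf2, Auts2, Kdm6a and Yaf2 were lower.

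To see whether genes that the complexes are known to silence changed, lists of their targets were read in the same fit. Of 44 developmental regulators that are textbook PRC2 targets in ESCs, 33 had too few counts to be tested, with at most 15 in any library, and 9 were at 0 in all 4 libraries. Summed over all 44 genes the level was 162 and 203 CPM in KO libraries and 127 and 138 CPM in WT libraries. Of the 11 tested, 6 were higher in KO cells, 2 were lower and 3 were not called; a silent gene passes the count filter only where it is on in a group, so this count says nothing about the list as a whole.

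Among those higher were the T-box factor Eomes, at 17.1 and 22.3 CPM in KO libraries against 1.26 and 3.03 CPM in WT libraries, and Gata3, at 32.2 and 38.9 CPM in KO libraries against 8.37 and 11.3 CPM in WT libraries. Eomes rose by 3.30 (SE 0.66, edgeR adjusted p = 0.000132; 2.69 without WT replicate 1 and 3.91 without WT replicate 2) and Gata3 by 1.88 (SE 0.40, edgeR adjusted p = 0.000316). Gata2, on chromosome 6, rose by 3.05 (SE 0.52, edgeR adjusted p = 7.71e-06), by 2.14 with chromosome medians set to 0, and by 3.65 without WT replicate 1. Markers of other early lineages moved too: summed over 6 trophoblast markers, which include Gata3, the level was 142 and 160.5 CPM in KO libraries and 37.7 and 34.8 CPM in WT libraries. Of these 6 markers Krt8, Krt18 and Gata3 were tested and all 3 were higher, while the defining trophoblast factor Cdx2 had 8 and 6 counts in KO libraries and 0 and 0 in WT libraries. Over 8 primitive endoderm markers the sum was 93.5 and 94.5 CPM in KO libraries and 29.7 and 31.8 CPM in WT libraries. Nearly all of that sum came from Dab2 and Lama1, the 2 that were tested, both higher; Gata4 had 3 and 1 counts in KO libraries and 0 and 1 in WT libraries, and Foxa2 was at 0 in all 4. The part of such cells in the rise of Eomes, Gata2 and Gata3 was not tested, and in bulk RNA a different number of cells of a type and a different amount of RNA per cell cannot be told apart.

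Other calls among the developmental targets rest on few reads. Hoxc9 had 17 and 19 counts in KO libraries, against 1 and 2 in WT libraries, a ratio per depth of 9.20 (exact 95% counting interval 2.91 to 46.7). Its fitted log2 fold change was 2.32 without WT replicate 1 and 4.05 without WT replicate 2, and its call was lost without KO replicate 1, KO replicate 2 or WT replicate 1. Hoxb13 had 20 and 27 counts in KO libraries, against 4 and 2 in WT libraries, and its rise of 2.63 (SE 0.80, edgeR adjusted p = 0.0131) was lost without KO replicate 2 (2.07), WT replicate 1 (2.72) or WT replicate 2 (2.57). Neither gene was called by DESeq2 (adjusted p of 0.0898 for Hoxc9 and 0.0711 for Hoxb13) or by limma-voom (0.0513 and 0.0661).
The neural factor Olig2 fell by 2.32 (SE 0.57, edgeR adjusted p = 0.00173), a call lost without WT replicate 1 (-1.98). Cdkn2a, the cell-cycle inhibitor locus silenced by both complexes, was at -0.59 (SE 0.35), Cdkn2b at -0.60 (SE 0.61) and Gsc at -1.12 (SE 0.54), none of them called.

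The PCGF6 complex represses germline genes in ESCs, but not all of them were silent in the WT cells here. Dazl had 767 and 382 counts in WT libraries, and Smc1b had 227 and 111. Several of the germline genes measured were lower in KO cells, while Pcgf6 itself did not pass the test. Of 24 such genes 17 were tested, of which 10 were called lower in KO cells and 7 were not called, beside 9.30% of all tested genes called lower. Several, such as Mael with 2 and 2 counts in KO libraries and 25 and 20 in WT libraries, passed the count filter only through WT cells, and the list was chosen with earlier results known, so the count says nothing about the list as a whole. Summed over the 24 genes the level was 245 and 270 CPM in KO libraries and 916 and 853 CPM in WT libraries. The choice of the list limits this sum too, and Dazl was the largest part of it in both WT libraries. Dazl, an RNA-binding protein of germ cells, had 39.4 and 32.7 CPM in KO libraries, against 321 and 289 CPM in WT libraries, and fell by 3.07 (SE 0.19, edgeR adjusted p = 2.07e-19). The WT libraries lay far above the KO libraries with no overlap.

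Of the meiotic genes, the cohesin gene Smc1b fell by 2.24 (SE 0.27) and Meioc fell by 3.60 (SE 0.42). The synaptonemal complex gene Sycp3 fell by 1.75 (SE 0.36), and its partner Sycp1 fell by 1.27 (SE 0.27). The germ cell transcription factor gene Sohlh2 fell by 2.64 (SE 0.47). Of the piRNA pathway, Mael fell by 3.83 (SE 0.83) and Mov10l1 fell by 3.72 (SE 0.68; -8.35 without KO replicate 1 and -2.94 without KO replicate 2, with an adjusted p of 0.124 by DESeq2). All 8 named genes were called with any 1 library left out.

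Ezh2 and Eed are textbook targets of E2F factors, so 20 cell-cycle genes of E2F factors were read beside them. Of these 4 were higher in KO cells and 2 were lower, beside 10.4% and 9.30% of all tested genes, with a median log2 fold change of -0.02; 4 of the 6 called lie on chromosomes 3, 6, 8 or 11. Among the promoters of the 10 Polycomb genes, an E2F-type motif was found in that of Ezh2 (TTTGGCGC, from 3 to 10 bases after the start site) and in that of Suz12 (TTTCCCGC, from 219 to 212 bases before it), as the capitals in the printed sequences mark. Either motif, searched on both strands, occurs in 1.58% of 32544 distinct mouse promoters of the same length. The motifs were chosen after the values of both genes were known, and a match is a description, not a binding site.

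RCOR2 peaks were common at Polycomb genes, as at most expressed genes. A peak summit lay inside the gene or within 10 kb of it for 9 of the 10 genes, close to the 88.7% of all tested genes. Within 1 kb of a start site 9 of the 10 had a summit, beside 70.9% of the 8198 tested genes with a listed start site. In the wider window of 10 kb around the gene, 8 had a peak with a −log10 q of at least 5, beside 70.0% of tested genes. The 10 genes held 50 peaks in all, with a median of 5 a gene beside 2 over tested genes, but their intervals are longer (a median of 42289 bp beside 23471 bp). Per 10 kb the medians were 0.640 and 0.445 peaks. The fold over control and −log10 q of a peak are the authors' values from merged libraries and have no replicate error.

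Most of these peaks were of ordinary strength. The median −log10 q of the peaks near the 10 genes was 4.46, and that of all 53366 peaks was 5.08. At Ezh2 the peaks had summits 343 bp before and 513 bp after the start site, at 4.38-fold and 4.15-fold, and at Suz12 532 bp before and 172 bp after it, at 3.54-fold and 4.60-fold. Neither gene that changed in KO cells had a peak above 5-fold. Eed had 5 peaks, the nearest 204 bp after the start and the strongest 4.61-fold.

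A peak of at least 5-fold stood near 5 of the 10 genes, beside 57.0% of all tested genes. The RNA of these 5 did not pass the test, but Eed, Kdm2b and Pcgf6, also not called, had no such peak. Mtf2 had 10 peaks. One with its summit 62 bp before the first start site was 5.75-fold, and its bases are in capitals in the printed promoter. The strongest, 8.04-fold with a −log10 q of 16.4, lay 1906 bp before the second start site and exceeded 93.9% of all peaks. Cbx7 also had 10, with the strongest, 6.83-fold, 314 bp after the start; the capitals in its printed promoter show the end of that peak and a second, 4.15-fold peak centred 159 bp before the start. Jarid2 had 5, the strongest 7.13-fold and 8395 bp upstream, and 1 at 3.92-fold 235 bp upstream of the start.

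Rnf2 had 4 peaks, of which the strongest, 7.35-fold, lay 36693 bp downstream of the start and beyond the end of the gene. Ring1 had 5, none of them inside the gene, with 1 at 3.46-fold 159 bp before the start and the strongest, 6.61-fold, past its end. Kdm2b had 7 peaks of up to 4.61-fold, 1 of them 283 bp before a start site. Pcgf6 had none: the nearest summit was 34219 bp from its start, and its promoter is 57.7% G and C with 22 CG pairs, beside medians of 53% and 7 over all promoters. No peak of the TALE pull-downs of the Nanog promoter lay within 10 kb of any of the 10 genes.

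**Figure D5:**
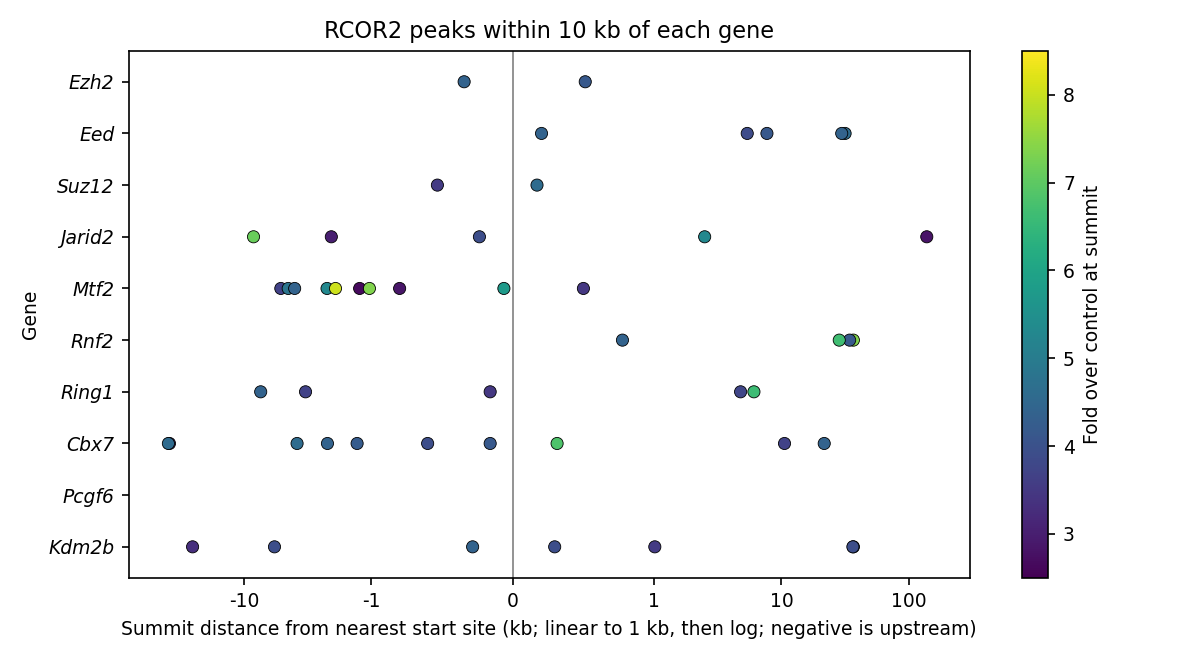
Position of each RCOR2 peak within 10 kb of the 10 genes, as the distance of its summit from the nearest start site in kb (linear to 1 kb, then logarithmic, negative upstream), with the fold over control as colour. Of the genes shown, 9 have a peak within 1 kb of a start site and Pcgf6 has none; the highest fold, 8.04, is at Mtf2.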

How the data were processed

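The files used were a table of RNA-seq counts and peak lists. The deposited gene counts are raw whole-number read counts per gene symbol, and those of the 4 per-library files were identical to the table. Tools named in the submitters' processing notes, with no role for each, are STAR 2.5.2b, Trimmomatic 0.36, Bowtie2 2.3.4.1, SAMtools 1.8, MACS2 2.1.1.20160309, featureCounts, Subread, HOMER and bedtools 2.25.0, with the builds GRCm38 and mm10. For collapsing of molecular identifiers and for use of strand the setting is not stated by these notes or the labels. Peaks carry a fold ratio over control at the summit and a −log10 q value, as deposited by the authors, and the peak names show a call on merged libraries.

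Counts were filtered with filterByExpr (10241 of 25131 rows), TMM-scaled and tested with edgeR 4.0.16 in R 4.3.3 (quasi-likelihood test, two-sided, Benjamini-Hochberg over all tested genes, calls at an adjusted p under 0.05). Each fold change is KO over WT, with an SE derived from the F statistic. CPM is counts per 1000000 after scaling. Centring entered each chromosome's median log2 fold change as an offset, with positions from RefSeq's GRCm38.p6 table, which placed 25027 rows. Per degree of freedom, the chi-square between replicates was 4.36 in KO and 4.94 in WT, above sampling noise. Same-numbered replicates were not shown to be pairs. Counting intervals are exact, at 95%, and cover counting error only. No transcript lengths were used, so levels of different genes are not compared. Promoters are RefSeq's, and all 10 genes matched (15 start sites). Scripts were tested on simulated data. The text names the 10 genes, Rcor2 and, of each list of subunits or targets, at most 8 called genes by adjusted p and at most 6 others by mean count; some that the rule names are not reported here. The members and lists were chosen with earlier results of these data known. Alternatives were DESeq2 1.42.0, limma-voom (limma 3.58.1), other scaling, no filter, a replicate block, centring, chromosomes left out and each library left out. ATAC-seq, input and ChIP control samples were not used here, and TALE peaks were read only for their distance to the 10 genes.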

Additional observations from a re-analysis of the deposited data

How the results depend on the processing

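Under 12 alternative fits, 111 of 118 values of the 10 Polycomb genes kept their direction and their side of the threshold, and 7 changed sign. The count of all genes called, 2014, was 1156 with DESeq2, 1326 with each chromosome centred, 931 with chromosomes 3, 6, 8 and 11 left out, and between 1035 (without KO replicate 1) and 1699 with 1 library left out. Of the 2 Polycomb genes called, 1 was called after centring and 0 with those chromosomes, which hold both, left out. With those chromosomes left out, where fewer genes are tested, 2 of the other subunits, 5 developmental targets and 5 germline targets were called, against 6, 8 and 10. Leaving out 1 library gave 1 to 5 calls for the other subunits (1 without KO replicate 1, 3 without KO replicate 2 or WT replicate 2), 4 to 7 for the developmental targets (4 without WT replicate 1) and 9 to 10 for the germline targets. Signs changed for Ezh2 after centring (-0.10), Jarid2 with library size alone (-0.024) and with 1 library left out (-0.045 to 0.12), Mtf2 (-0.026 to 0.16), Ring1 (-0.30 to 0.56), Aebp2 (-0.072 to 0.044) and Usp7 (-0.10 to 0.028) with 1 library left out, Usp7 after centring (0.11) and with chromosomes left out (0.0041), and Kdm6b after centring (0.27); the cause was not tested. Rcor2 was called with library size alone (-0.64, edgeR adjusted p = 0.0466; range over its alternatives 0.0466 to 0.266). With a replicate block 1822 genes were called, among them Ezh2 at 0.82 and Suz12 at -1.04. The lists kept counts of 6, 8 and 10 with the block. Over the tested genes, the difference between replicates 1 and 2 in KO correlated at -0.05 with that in WT. Requiring a peak of at least 5-fold gave 5 of the 10 genes an RCOR2 peak, beside 57.0% of tested genes, and no other peak setting tried moved the count from 9 by more than 1.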
